A study of Mus musculus with 4 samples.

Results

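The clustered protocadherin genes of the mouse were examined for peaks of H1foo, the linker histone of the oocyte, and of the somatic H1 histones. Members were the protein-coding genes of chromosome 18 in NCBI RefSeq (assembly GRCm38.p6, whose chromosomes have the coordinates of mm10) named Pcdha, Pcdhb, Pcdhga, Pcdhgb or Pcdhgc with a number, together with the C-type genes Pcdhac1 and Pcdhac2. This gave 57 of 21774 protein-coding genes, of which 14 stand in the alpha cluster, 22 in the beta cluster and 21 in the gamma cluster. The pseudogene Pcdhgb8 was not counted.

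Clustered protocadherins are adhesion proteins of the cadherin superfamily, best known from neurons, where each cell expresses its own combination of them. Each alpha and gamma gene has its own promoter and a long variable exon, which is spliced to constant exons shared by its cluster, while each beta gene consists of a single coding exon. Which promoters are used depends on CTCF and cohesin, which loop them to distant enhancers, and on DNA methylation, laid down in the early embryo by the methyltransferase Dnmt3b. Linker histones bind the nucleosome and the DNA entering and leaving it. H1foo is the variant of the oocyte and is not a normal histone of embryonic stem cells.

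The cells were a line of mouse embryonic stem cells (129S4/SvJae), and those of both groups overexpressed a fusion of H1foo with GFP. Chromatin immunoprecipitation with sequencing gave 2 libraries for H1foo, from a polyclonal rabbit serum made in-house, and 2 for somatic H1, from the mouse monoclonal AE4. The authors deposited 1 peak list per antibody, and values of single libraries were not used here, so no error between libraries is given and no test was made. The counts below describe 2 lists. The sources used here give neither the promoter of the transgene, nor whether the line is 1 clone, nor whether AE4 binds H1foo. The labelled cell type could not be checked against marker genes, since peak lists hold no expression values. The H1foo list had 97825 peaks and the AE4 list 47493. Sequencing depth is unknown. The scores are the authors' own values on a scale the files do not name, with a lowest value of 50 in both lists.

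By number, H1foo peaks were most frequent in the gamma cluster and least frequent in the alpha cluster, and AE4 had 1 to 3 peaks in each of the 3 clusters. The clusters together span 695.1 kb and held 42 distinct H1foo peaks and 6 distinct AE4 peaks. This was 7 times as many H1foo as AE4 peaks, against 2.25 times on chromosome 18 as a whole and 2.07 times on the 19 autosomes. H1foo peaks lay at 60.4 per Mb in the clusters, at 23.5 per Mb on chromosome 18 and at 39.7 per Mb on the autosomes. AE4 peaks lay at 8.63 per Mb in the clusters, at 10.5 per Mb on chromosome 18 and at 19.2 per Mb on the autosomes. Taken as a whole, the clusters had more H1foo and fewer AE4 peaks per Mb than either background, but the single clusters differed among themselves. The AE4 gap to chromosome 18 was small, with a density 0.825 times as high, and rests on 6 peaks.

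The alpha cluster (36930285 to 37188897 of chromosome 18) held 5 H1foo peaks and 1 AE4 peak, or 19.3 and 3.87 per Mb. The beta cluster (37264998 to 37521419) held 10 peaks of H1foo and 2 of AE4, or 39.0 and 7.80 per Mb. The gamma cluster (37661775 to 37841873) held 27 of H1foo and 3 of AE4, or 149.9 and 16.7 per Mb. Against chromosome 18, H1foo density was 0.822 times as high in the alpha, 1.66 times in the beta and 6.38 times in the gamma cluster, and AE4 density 0.370, 0.745 and 1.59 times. Against the autosomes, H1foo density was 0.487, 0.983 and 3.78 times as high in the alpha, beta and gamma clusters, and AE4 density 0.202, 0.407 and 0.868 times. The gamma cluster therefore exceeded chromosome 18 for both antibodies, and the autosomes for H1foo alone. H1foo peaks covered 1.27% of the alpha, 2.33% of the beta and 10.4% of the gamma cluster, and AE4 peaks 0.197%, 0.434% and 0.637%. The 500 kb before the alpha cluster had 42 H1foo and 14 AE4 peaks, and the 500 kb after the gamma cluster had 96 and 27. AE4 density in each cluster was therefore below that of both flanks, which were chosen for comparison after the values had been seen. H1foo density was below both flanks in the alpha and beta clusters and between the flanks in the gamma cluster.

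**Figure D1:**
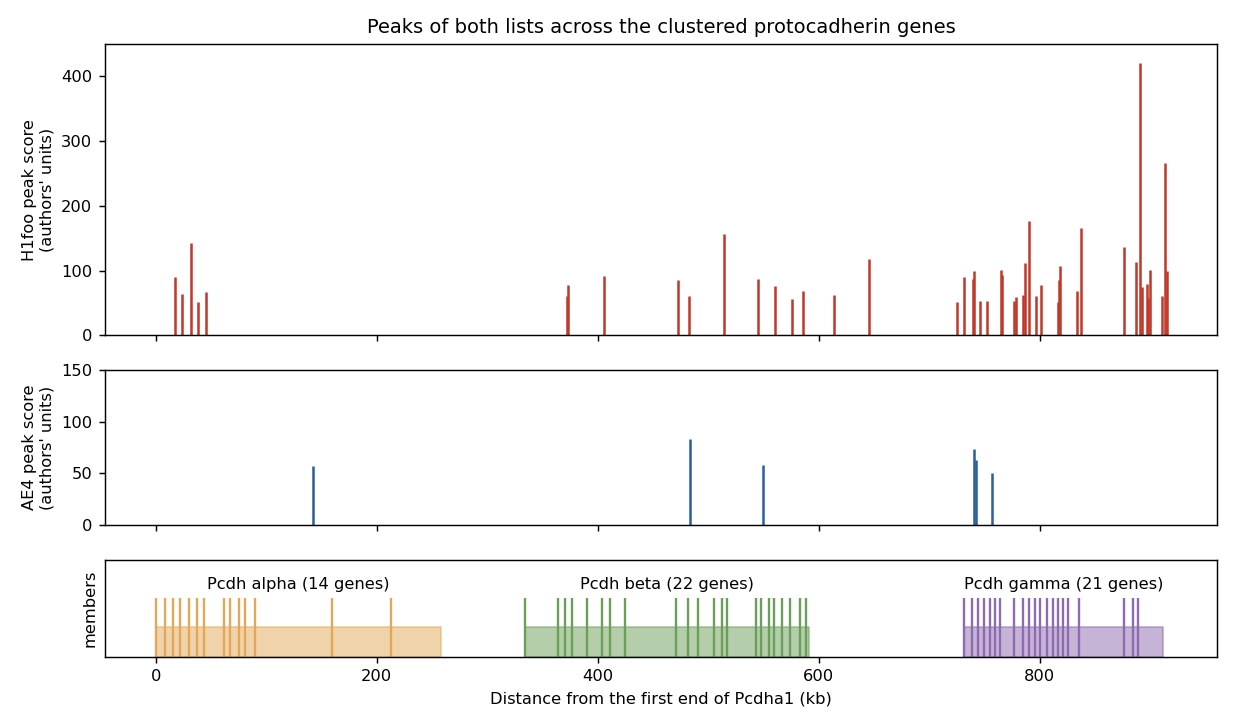
Score of every peak (vertical lines, the authors' units) against distance in kb from the first end of Pcdha1, for the H1foo list above and the AE4 list below, with the first ends of the 57 members as ticks in the lowest panel. H1foo peaks crowd in the gamma cluster and are missing from most of the alpha cluster, while the 6 AE4 peaks inside the clusters all score below 100.

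**Figure D2:**
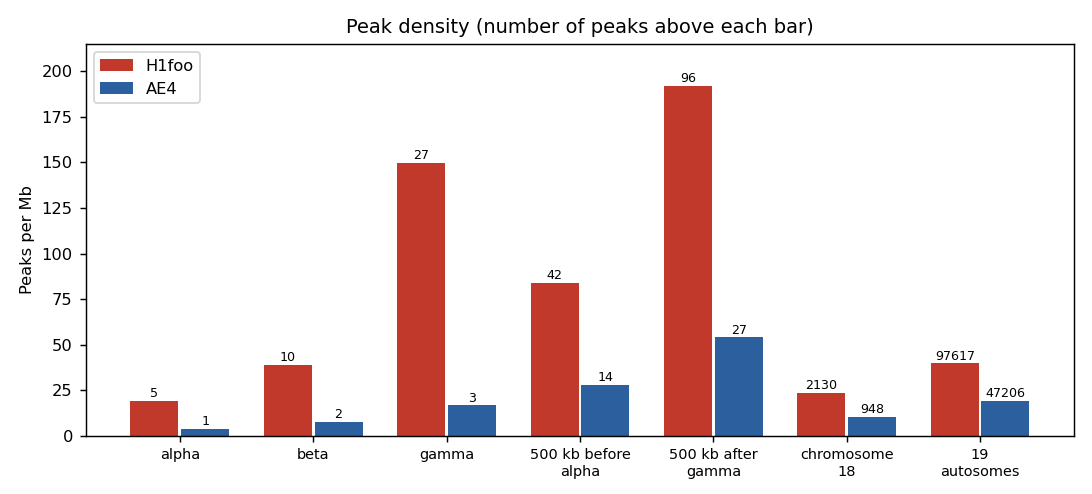
Peaks per Mb in each cluster, in the 500 kb on either side, on chromosome 18 and on the 19 autosomes, for H1foo (left bar of each pair) and AE4 (right bar), with the number of peaks above each bar. The gamma cluster reached 149.9 H1foo peaks per Mb against 19.3 in the alpha cluster, and AE4 stayed at or below 16.7 per Mb in all 3 clusters.

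Scores in the clusters were moderate. The 42 H1foo peaks had a median score of 78.3 (range 51.2 to 420.3) and the whole H1foo list 73.2. Of these peaks, 9 reached the upper quartile of the list, a score of 103.2, and 4 reached 153, the score that marks its highest 10%. The 6 AE4 peaks had a median score of 60.8 (range 50.9 to 83.2), against 63.8 in the whole AE4 list, and 1 reached the upper quartile of 82.2. Median widths were 560 bp for H1foo and 449 bp for AE4 in the clusters, and 560 and 466 bp in the whole lists.

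Members were then read one by one, each being called where some of a peak fell inside 2 kb on either side of the gene's own first end. The reference table gives no strand for genes of chromosome 18. The first end was therefore the lower coordinate, as all members are transcribed towards higher coordinates, which for alpha and gamma is the end that differs between members. An H1foo peak was found at 28 of 57 members (49.1%) and an AE4 peak at 4 of 57 (7.02%). Among 17492 protein-coding genes whose strand is given, none of them on chromosome 18, the shares were 31.6% for H1foo and 10.8% for AE4. All 4 members with an AE4 peak also had one of H1foo, so 24 members had H1foo alone and 29 had neither. Among the stranded genes 5521 had an H1foo peak, 1897 an AE4 peak and 1605 both. Having both was thus common there too, at 84.6% of the stranded genes with an AE4 peak. At Pcdhb16 and Pcdhga3 the H1foo and AE4 peaks lay on opposite sides of the first end. An AE4 peak stood at 14.3% of the members with an H1foo peak, and at 29.1% of all stranded genes with one. With AE4 peaks at only 4 members, the members' share could not have been above 14.3%. It therefore restates the small number of members with AE4.

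The 28 members drew on 34 distinct H1foo peaks, since 7 gamma genes had more than 1 and some peaks fell in the windows of neighbours. First ends of neighbouring members lie between 4154 and 143422 bp apart, with a median of 7260 bp. The window decided some calls. Just inside it were Pcdhb16, with an H1foo peak 1.995 kb before its first end, and Pcdhga3, with one starting 1.927 kb after it. Just outside were Pcdhb21 and Pcdhb20, with H1foo peaks starting 2.028 and 2.071 kb after their first ends. For AE4, Pcdhga3 and Pcdhb16 were inside at 1.892 and 1.949 kb, and Pcdhga4 and Pcdhgb2 outside at 2.071 and 2.13 kb.

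The H1foo list is longer than the AE4 list, and cutting it to the same number of peaks by score left 19 members with an H1foo peak (33.3%), against 19.8% of stranded genes. The result turned with the window. Within 1 kb of the first end, 11 of 57 members (19.3%) had an H1foo peak against 24% of stranded genes, and within 500 bp it was 8 of 57 against 18.7%. Over all 57 members, the higher share at 2 kb therefore came from peaks more than 1 kb from the first end. The clusters differed in this. In the 1 kb after the first end, 11 of 21 gamma members (52.4%) had any part of an H1foo peak, against 18.8% of stranded genes. No alpha or beta member had one there. With H1foo scores in the upper quartile, 9 of 57 members (15.8%) had a peak within 2 kb, against 12.2% of stranded genes.

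For AE4 the members' share was below that of stranded genes in each of the following windows and score limits around the first end. These settings largely recount the same few peaks. The stranded genes include none of chromosome 18, where AE4 peaks lay at 10.5 per Mb against 19.2 on the autosomes. At either end, 17% of its other protein-coding genes had an AE4 peak, against 24.1% of all. The part of the chromosome in the lower share of members was not tested. No member had an AE4 peak within 1 kb, against 5.43% of stranded genes, or within 500 bp, against 3.37%. Within 5 kb it was 7 of 57 (12.3%), against 25.8%. By peak centre within 2 kb it was 2 of 57 (3.51%), against 9.21%, and with scores at or above the list median also 2 of 57, against 6.69%. With scores in the upper quartile 1 member (1.75%) had an AE4 peak, against 3.93%.

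In the alpha cluster 5 of 14 members (35.7%) had an H1foo peak, a share near the 31.6% of stranded genes, and none had an AE4 peak, against 10.8%. The 5 were consecutive, from Pcdha3 to Pcdha7. Pcdha5 had the highest score at 143.1, with a peak of 1228 bp at 36961647 to 36962874, which lies 1371 to 2598 bp after the first end. Pcdha3 followed with a score of 90.6 (36947386 to 36948129), then Pcdha7 with 67.4 (36975517 to 36975995), Pcdha4 with 64.4 (36953776 to 36954232) and Pcdha6 with 51.2 (36968804 to 36969181). Every one of these peaks lay wholly after the first end of its gene, with its centre 1315 to 1984 bp after that end. All 5 are alternate isoforms, of the kind that neurons choose at random. Exon positions were not analysed here.

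The other 9 alpha members had no H1foo peak in the window. These were Pcdha1 and Pcdha2 on one side and Pcdha8 to Pcdha12, Pcdhac1 and Pcdhac2 on the other. Pcdhac2, the C-type isoform known for the tiling of serotonergic axons, had its nearest H1foo peak 158499 bp after its first end. The longest stretch without an H1foo peak ran for 326.2 kb from Pcdha7 into Pcdhb3 and held the first ends of 10 members. The single AE4 peak of the alpha cluster, with a score of 56.7 at 37072083 to 37072591, lay between the first ends of Pcdha12 and Pcdhac1 and overlapped no H1foo peak. Neither antibody had a peak within 2 kb of the shared last end of the alpha genes.

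In the beta cluster 8 of 22 members (36.4%) had an H1foo peak in the window and 2 (9.09%) had an AE4 peak, both near the shares of stranded genes, 31.6% and 10.8%. Pcdhb13 had the highest score at 156.4, with a peak of 1051 bp at 37443817 to 37444867. Pcdhb6 had 91.2 (37335532 to 37336185), Pcdhb15 86.9 (37475296 to 37475773) and Pcdhb9 86.1 (37402570 to 37403393). The peak of Pcdhb15 was also the one that entered the window of Pcdhb16 from the side before its first end. The lowest scores were those of Pcdhb3 with 61.0 and Pcdhb10 with 60.6. Members with a peak were scattered along the cluster, in runs of at most 2, and Pcdhb1 and Pcdhb22 at its ends had none.

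Beta genes are single exons, so their spans show where the peaks stand in the gene itself. All 10 H1foo peaks of the beta cluster had their centre inside a gene span, although the spans make up 29.5% of the cluster. H1foo peaks covered 7.88% of the bases in spans and none of the 180785 bp between them. The 9 genes concerned were the 7 with a peak of their own in the window and Pcdhb20 and Pcdhb21, with scores of 55.8 and 68.3. Pcdhb3 had 2 peaks. The centres lay 33.7% to 82.7% of the way along the span and 1640 to 2308 bp after the first end. The beta peaks thus stood in the body of the gene and not at its start.

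Both AE4 peaks of the beta cluster were also inside spans. Pcdhb10 had one with a score of 83.2 at 37413089 to 37413793, which overlapped 98.3% of the H1foo peak of that gene. Pcdhb16 had one with a score of 58.4 at 37479717 to 37480125, which overlapped none. Members of the beta cluster resemble each other closely in sequence, and how reads that match several places were treated is not stated in these sources, so peaks at single beta genes are uncertain. The treatment of such reads is equally unknown for the alpha and gamma clusters, where likeness in sequence was not analysed here. The build is that of strain C57BL/6J while the cells are of 129S4/SvJae, and the part of either point in the pattern was not tested.

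In the gamma cluster 15 of 21 members (71.4%) had an H1foo peak, against 31.6% of stranded genes, and 2 (9.52%) an AE4 peak, against 10.8%. By subfamily these were 9 of 12 Pcdhga, 3 of 6 Pcdhgb and all 3 Pcdhgc genes. Pcdhgc5, a C-type isoform known to bind GABA-A receptors, had the highest score of all members at 420.3, above 99.4% of the H1foo list. Its peak of 2473 bp at 37819417 to 37821889 ran from -129 to 2343 bp relative to the first end. Pcdhgb4 followed with 175.9 (37720278 to 37721029), Pcdhga12 with 165.4 (37767125 to 37768233), Pcdhgc3, an isoform known to promote dendrite branching, with 135.7 (37806291 to 37807541) and Pcdhgc4, known to be needed for the survival of cortical interneurons, with 113.4 (37816962 to 37817865). Best scores of the other 10 gamma members with a peak ran from 52.4 at Pcdhgb1 to 111.8 at Pcdhga7. The 6 without one were Pcdhga4, Pcdhgb2, Pcdhga9, Pcdhgb6, Pcdhgb7 and Pcdhga11.

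Gamma peaks fell at 2 places along the gene. Of the 27 H1foo peaks, 11 had their centre in the 1 kb after a first end, 10 between 1 and 2.5 kb after one, and 6 farther on. Pcdhga1, at the start of the cluster, had a single peak centred 311 bp after its first end with a score of 89.8. Pcdhga2, Pcdhga5, Pcdhga6, Pcdhga7 and Pcdhga10 had peaks at both places. Pcdhga10 had 3 peaks in its window, with centres 218, 808 and 2061 bp after the first end and scores of 51.4, 84.8 and 107.4. The peaks of Pcdhga7, Pcdhgb4, Pcdhgb5, Pcdhgc3 and Pcdhgc5 lay over the first end itself, which was true of no alpha or beta member.

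Of the 6 gamma peaks farther on, 1 was centred at -1671 bp relative to the first end of Pcdhga12, with a score of 68.2. It lay 1838 to 2378 bp after the first end of the pseudogene Pcdhgb8. The other 5 followed Pcdhgc5, centred from 3162 to 21721 bp after its first end, in the part of the cluster that leads to the constant exons. Their scores were 74.0, 78.8, 58.2, 100.7 and 61.0. AE4 had no peak in the last 154.1 kb of the cluster, which held the first ends of 16 members. Its 3 gamma peaks scored 73.4 at Pcdhga2 (37670616 to 37671091), 63.2 between Pcdhga2 and Pcdhga3 (37672194 to 37672443) and 50.9 at Pcdhga4 (37687308 to 37687729). The peak at Pcdhga2 overlapped an H1foo peak with a score of 99.1, and the others overlapped none.

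Across the clusters, H1foo peaks kept to one side of the first end. Of 27 peak centres within 2 kb of a first end, 26 lay after it and 1 before it. Over all stranded genes 4265 of 7427 such centres, or 57.4%, lay after the start. The median position was 1315 bp after the first end for members and 232 bp after it for stranded genes. Of all peaks inside the clusters, 36 of 42 of H1foo (85.7%) had their centre in the 2.5 kb after a member's first end, a stretch that makes up 20.5% of the clusters. The same was true of 4 of 6 AE4 peaks. The limit of 2.5 kb was chosen after the positions had been seen.

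Any part of an H1foo peak lay 1 to 2.5 kb after the first end at 26 of 57 members (45.6%), against 19.7% of stranded genes. In the 1 kb after the first end it was 11 of 57 (19.3%), all of them gamma genes, against 18.8%. In the 1 kb before the first end it was 5 of 57 (8.77%), also all gamma genes, against 15.9%. The share of members under an H1foo peak was highest 2100 bp after the first end, at 19 of 57 (33.3%) against 7.94% of stranded genes. That position is the members' own maximum, which favours the contrast. The share of stranded genes was highest 300 bp after the first end, at 10.4%. For AE4 the share 1 to 2.5 kb after the first end was 4 of 57 (7.02%) against 6.92%, and no member had an AE4 peak in the 1 kb on either side of the first end. The shares of stranded genes in these AE4 windows were 3.35% before and 3.77% after.

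**Figure D3:**
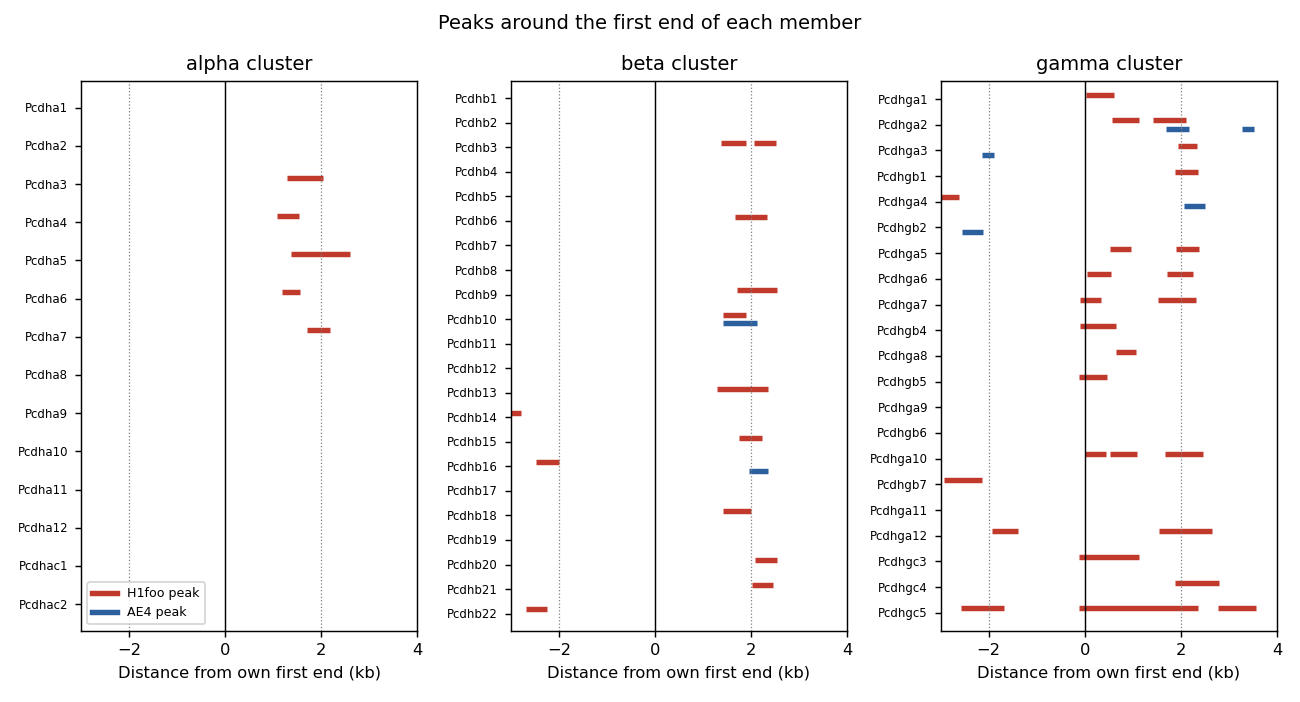
H1foo peaks (upper bar of each row) and AE4 peaks (lower bar) around the first end of each of the 57 members, with distance from that end in kb on the horizontal axis, members in order of position from top to bottom and dotted lines at 2 kb. The alpha and beta H1foo peaks that belong to a gene start more than 1 kb after its first end, while gamma genes also have peaks in the 1 kb after it.

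**Figure D4:**
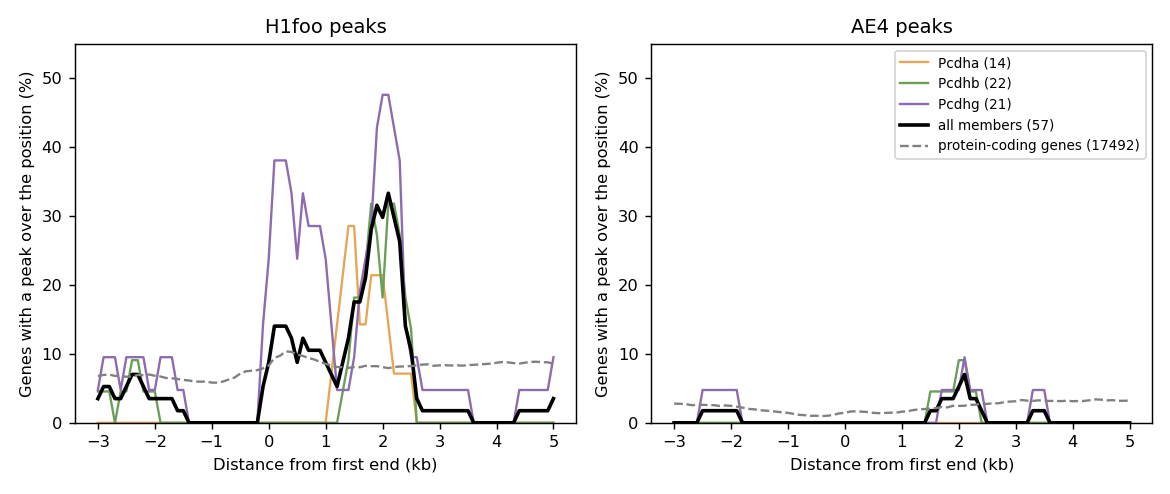
Share of genes with a peak over each position from 3 kb before to 5 kb after the first end, in steps of 100 bp, for H1foo (left) and AE4 (right), with a line for each cluster, for all 57 members and for 17492 stranded genes (dashed). The H1foo line of the members is highest 2.1 kb after the first end, at 33.3%, where the dashed line is at 7.94%. The dashed H1foo line is highest at 0.3 kb, at 10.4%.

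Few peaks of the 2 lists overlapped in the clusters, where AE4 had only 6. Of the H1foo peaks 2 of 42 (4.76%) overlapped an AE4 peak, and of the AE4 peaks 2 of 6 (33.3%) overlapped an H1foo peak. Outside the clusters the shares were 24.1% and 51.2% over all chromosomes, and 18.2% and 40.1% on chromosome 18. The share of H1foo peaks is held down by the small number of AE4 peaks. For AE4, 2 of 6 peaks are too few to tell 33.3% from 40.1%. The 4 H1foo peaks of the clusters with scores among the highest 10% of the list were those of Pcdhgc5, Pcdhgb4, Pcdhga12 and Pcdhb13. They overlapped no AE4 peak, whereas 60.4% of such peaks elsewhere, over all chromosomes, did. The comparison is uneven in strength. All but that of Pcdhgc5 scored 156.4 to 175.9, near the lower limit of 153, while the list reaches 2839.2. With so few AE4 peaks here the overlap counts rest on single peaks, and an AE4 peak that was not called is not a measured absence of somatic H1.

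The C-type genes differed by cluster. An H1foo peak stood at Pcdhgc3, Pcdhgc4 and Pcdhgc5 and at neither Pcdhac1 nor Pcdhac2, so that 3 of 5 had one, against 25 of 52 members of the other kinds. None of the 5 had an AE4 peak, against 4 of the 52. Among stranded genes the shares were 31.6% for H1foo and 10.8% for AE4, and 5 genes are too few to set against them.

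At the borders, Zmat2 before the alpha cluster and Slc25a2 and Taf7 between the beta and gamma clusters had no peak of either antibody at an end or inside. The interval between the alpha and beta clusters held none, and that between beta and gamma held 3 H1foo peaks and no AE4 peak. After the gamma cluster stands Diaph1, a formin gene, with 7 H1foo peaks and 1 AE4 peak in its span. At the last end shared by the 21 gamma genes, 1 H1foo peak with a score of 61.0 lay before it and 1 with a score of 266.3 after it, outside the cluster. Counting either end of the gene in place of the first raised the members with an H1foo peak to 36 (63.2%). All 21 gamma genes share their last end, and Pcdhb20 and Pcdhb21 had their peaks within 2 kb of their own last ends. The members with AE4 stayed at 4 (7.02%). The shares at either end were 36.3% for H1foo and 17% for AE4 among the other 454 protein-coding genes of chromosome 18, and 44.9% and 24.1% among all protein-coding genes. The predicted genes Gm37013, Gm38666 and Gm38667, which begin at Pcdha4, Pcdha6 and Pcdha7 and run to the end of the gamma cluster, share the peaks of those members.

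Related genes elsewhere were read at either end, since strand was missing for some, and their counts stand beside the 44.9% of all protein-coding genes with an H1foo peak there and the 24.1% with an AE4 peak. Of 13 protocadherins outside the clusters, Pcdh1, Pcdh9, Pcdh12 and Pcdh17 had an H1foo peak (30.8%) and none an AE4 peak. Of 17 classical cadherins, 7 (41.2%) had an H1foo peak and 5 (29.4%) an AE4 peak, and E-cadherin (Cdh1), the adhesion molecule of embryonic stem cells, had H1foo alone. Of 15 genes that regulate the clusters, 8 (53.3%) had an H1foo peak, among them Dnmt3b, Smchd1, Wapl, Smc3 and Setdb1, and only Dnmt3b and Dnmt1 (13.3%) an AE4 peak. Ctcf had neither. Of 10 intracellular partners, Ptk2, Ptk2b, Axin1 and Wasf1 had an H1foo peak (40%) and Axin1 and Ctnnb1 an AE4 peak (20%). Of 39 Hox genes, which also stand in clusters, 11 (28.2%) had an H1foo peak and 1 (2.56%) an AE4 peak. With so few genes in each list, these shares only describe them. At the start of 22 Hox genes of known strand, 2 (9.09%) had any part of an H1foo peak 1 to 2.5 kb after it, against 45.6% of the protocadherins. The limit of 2.5 kb was chosen after the protocadherin positions had been seen, which favours this contrast. In the 1 kb after the start the shares were 13.6% of Hox genes and 19.3% of protocadherins.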

How the data were processed

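The submitters' processing notes name Bowtie 1.1.2 and the build mm10. Per the file headers the peak caller was MACS, of a version not stated. The deposited score is 1 value per peak as the authors' caller gave it. The sources used here do not say how the 2 libraries of each antibody became 1 list, whether an input was used, or how reads with several matches were placed. Read depth is unknown, so no counting interval can be given.

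Starts were converted to positions counted from 1. Peaks on assembled chromosomes were kept, and 113 protein-coding genes on scaffolds left out. Overlap meant at least 1 bp. Positions came from RefSeq gene spans, and strand from the RefSeq promoter table, which holds no gene of chromosome 18. The promoter sequence features planned for the members were not analysed here. Chromosome length was taken to the last gene or peak end. Computations used Python 3.11.15, pandas 2.3.3 and NumPy 2.4.6, and the interval functions were tested on simulated data.

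The members and lists were chosen with earlier results of these data known. Genes were named by rule: in each cluster the 5 highest H1foo scores in the window, every member with an AE4 peak, the C-type genes, the genes at the ends of each cluster and those nearest the window's limit. Members without an H1foo peak, other gamma genes, and genes beyond the clusters were named to account for counts, after their values were seen.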

Additional observations from a re-analysis of the deposited data

How the results depend on the processing

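No paired analysis was possible because the peak lists used here hold no value per library, and for the same reason no replicate could be left out. Of 32 alternatives, 16 left the count within 1.5 times its value or the share in place. The members with an H1foo peak (28) became 8 with a window of 500 bp and 11 with 1 kb, both shares below those of stranded genes, and 9 with only scores in the upper quartile (15.8% against 12.2%). The members with an AE4 peak (4) became 0 with 500 bp or 1 kb and 7 with 5 kb (12.3% against 25.8% of stranded genes). They became 2 by peak centre, 2 with scores at or above the list median and 1 with the upper quartile. Each was a smaller share than among stranded genes, none of which lies on chromosome 18. The H1foo peaks in the clusters (42) became 25 above the median score, 9 in the upper quartile and 24 with the list cut to the AE4 length. The AE4 peaks (6) became 2 above the median score and 1 in the upper quartile. The overlapping AE4 peaks (2) became 1, and the beta peaks inside gene spans (10) became 6, above the median score, where fewer peaks remain by construction. The share of H1foo centres after the first end was 100% in both alternatives, which were added after the data were seen. The unknown depth limits every absence of a peak.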
